A study of Mus musculus with 6 samples.

Results

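The 10 genes described here encode 5 receptors of the TNF receptor family that B cells carry, CD40 (Cd40), TACI (Tnfrsf13b), BAFF receptor (Tnfrsf13c), TNFR2 (Tnfrsf1b) and Fas (Fas), and 5 TRAF adaptors that act below such receptors (Traf1, Traf2, Traf3, Traf5 and Traf6). They were listed by name and not by a limit on their values, although earlier results of these data were known. All 10 were found among the 27179 genes of the count table and passed the expression limit that left 11005 genes for testing. RNA-seq was done on 6 libraries of NP-binding germinal center (GC) B cells sorted from the spleens of C57BL/6 mice, 1 from wild-type (WT) and 1 from Il21r-/- animals on each of days 7, 10 and 14 after intraperitoneal NP-KLH in alum, a T cell-dependent hapten-protein antigen. All cells were sorted for B220, NP binding and surface IgG1 and against CD38, CD138, Gr1, IgM and IgD, so Fas did not enter the gate, and all groups received the same antigen. Per the methods, nearly all experiments were on bone marrow chimeras, Ly5.1 hosts that were irradiated and then given either Il21r-/- or WT marrow. In such animals the helper T cells and other B cells that arise from the marrow carry the donor genotype as well, whereas host cells outside the blood lineages keep the interleukin-21 receptor. The labels give 1 mouse per library, the methods give 9 to 10 mice of each genotype from 2 immunizations, and the description of the sort gives 3 of each genotype on day 7, so the sources differ on the mice behind a library.

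CD40 on a GC B cell binds CD40 ligand on follicular helper T cells, and this contact in the light zone is one of the signals that let a GC B cell survive and return to division. BAFF receptor and TACI bind the survival factor BAFF, TACI binds APRIL as well, and Fas starts apoptosis when it meets Fas ligand. None of these receptors has enzyme activity of its own. CD40, BAFF receptor, TACI and TNFR2 recruit TRAF proteins, whereas Fas recruits the adaptor FADD. TRAF2 and TRAF3 hold the kinase NIK at a low level until a receptor draws them away, TRAF6 and TRAF2 feed the classical NF-kB pathway, and TRAF1 joins TRAF2 in mixed complexes.

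Reads counted on genes ranged from 21353438 to 27435124 per library. The targeted gene Il21r had 345.8, 263.0 and 246.6 CPM (counts scaled to a common library size after TMM normalization) in WT and 105.8, 127.6 and 112.7 in Il21r-/- on days 7, 10 and 14 (log2 fold change 1.29, standard error (SE) 0.13, edgeR quasi-likelihood adjusted p = 0.00137). Positive log2 fold changes mean higher in WT throughout. The GC B cell gene Bcl6 had 145.2 to 239.4 CPM. Ighd, a naive B cell gene, had 0.983 to 1.68, in cells that were sorted against IgD. Not all naive or memory B cell markers were that low, with Fcer2a at 154.2 to 807.6 CPM and Ighm at 217.1 to 485.4. Apart from Lck and Cxcr5, which GC B cells also express, 12 T cell markers summed to 2.44 to 3.30 CPM in WT and 2.71 to 3.58 in Il21r-/- (that division was made after the values were seen). In bulk libraries, fewer cells that carry a transcript and less transcript per cell cannot be told apart.

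Per length, the BAFF receptor gene was the most abundant of the 10. In RPKM, the CPM divided by the exon length in kilobases, Tnfrsf13c averaged 270.6 over the 6 libraries and lay above 96.3% of the tested genes. Fas followed with 89.9, Cd40 with 66.9, Tnfrsf13b with 52.1, Traf5 with 49.5 and Traf1 with 47.9. Traf2 was at 19.6, Traf6 at 7.84, Traf3 at 4.44 and Tnfrsf1b at 3.86, above 28.5% of tested genes. The ranges over the 6 libraries did not overlap between Tnfrsf13c and Fas, between Traf1 and Traf2, or between Traf2 and Traf6. The other neighbours in this order overlapped, and Tnfrsf13b stood above Traf5, and Traf3 above Tnfrsf1b, in only 3 of the 6 libraries.

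**Figure D1:**
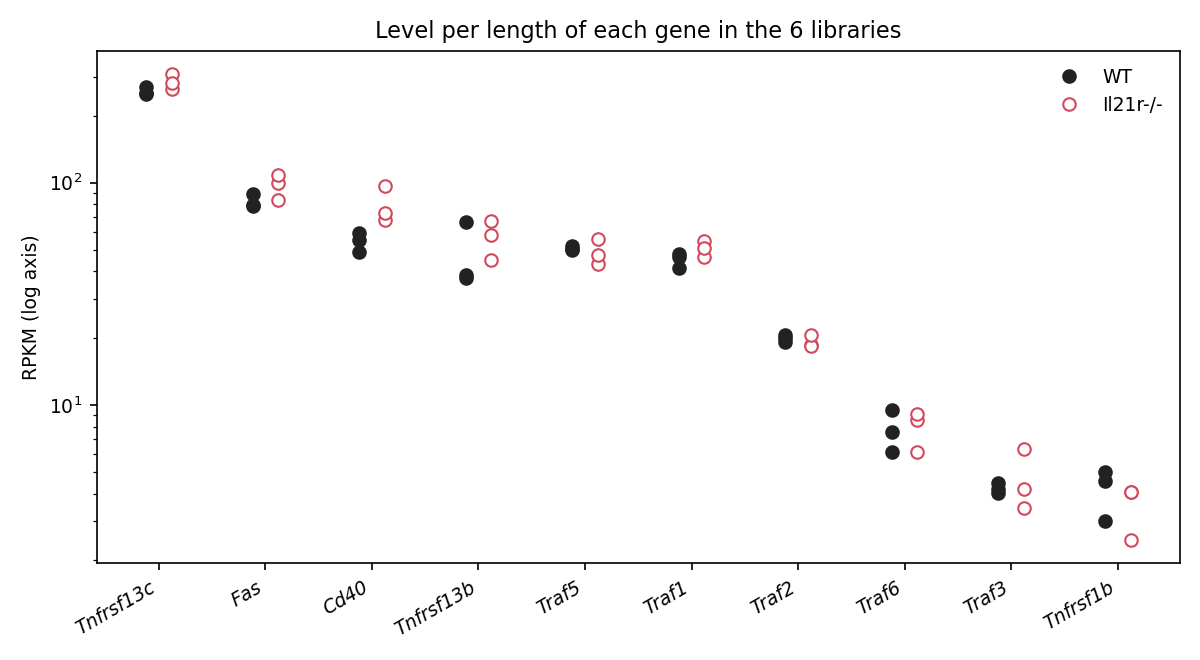
Level of each of the 10 genes in RPKM (log axis), 1 point per library, 3 WT (filled) and 3 Il21r-/- (open), ordered by the mean. Tnfrsf13c lies at 249.9 to 307.9 and Tnfrsf1b at 2.47 to 5.0, and only for Tnfrsf13c and Fas, Traf1 and Traf2, and Traf2 and Traf6 do the ranges of neighbours over the 6 libraries not overlap.

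The 2 genotypes were compared over the 3 days with 3 libraries each, in a model with a linear effect of day. Of the 10 genes Cd40 passed the threshold of 0.05, higher in Il21r-/-, where 5.92% of all tested genes were called in either direction and 4.52% were called as higher in Il21r-/-. The 4 other receptors and the 5 TRAF genes did not pass. Over 3 days 7 of the 10 had a log2 fold change below 0, as did 51.8% of the tested genes, and 6 of the 10 had the same sign on all 3 days, as did 53.3%. Cd40 was also the 1 gene of the 10 whose CPM did not overlap between the genotypes, which was the case for 18.4% of tested genes.

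**Figure D2:**
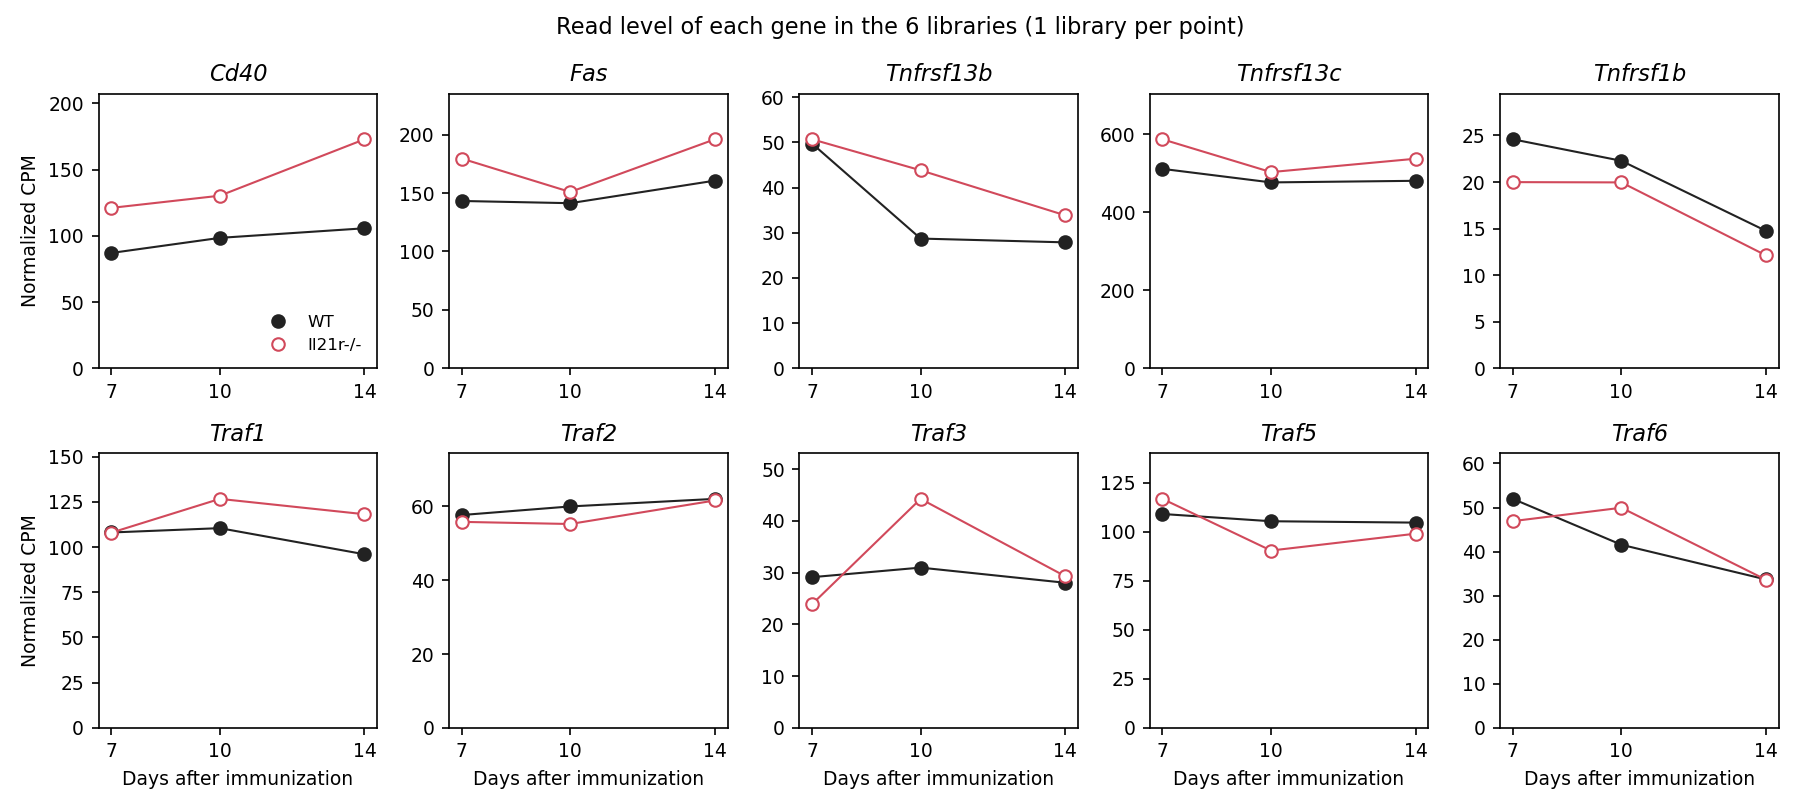
Normalized CPM of each gene against the day after immunization, 1 library per point, WT filled and Il21r-/- open, with each vertical axis starting at 0. Cd40 is higher in Il21r-/- on each day (121.1 to 172.9 against 87.1 to 105.7 in WT), and Tnfrsf1b is lowest on day 14 in both genotypes (14.8 and 12.1).

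Cd40 (Entrez 21939) lies on the plus strand of chromosome 2, from 165055614 to 165071654 of GRCm38, and its exons overlap no other annotated gene. In WT it had 87.1 CPM on day 7, 98.5 on day 10 and 105.7 on day 14. In Il21r-/- it had 121.1, 130.3 and 172.9 CPM on the same days. All 3 Il21r-/- libraries were above all 3 WT libraries, and the Il21r-/- library of day 14 was the highest. Il21r-/- thus held 1.39, 1.32 and 1.64 times the WT level on days 7, 10 and 14, and 1.44 times over the 3 days (log2 fold change −0.53, SE 0.10, edgeR quasi-likelihood adjusted p = 0.0164). With the libraries of a day paired, the log2 fold change was again −0.53 (adjusted p = 1.72e-05 from edgeR). Many genes passed in that paired fit, 2519 of 11005 in either direction and 13.6% with the higher level in Il21r-/-. It used the same 6 libraries, so its smaller p is not separate evidence for the Cd40 difference.

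The Cd40 call over 3 days did not hold in most sets of 5 libraries. Leaving out any 1 library other than Il21r-/- on day 10 moved the adjusted p above the threshold. It then lay between 0.0574 (without WT on day 10) and 0.198 (without WT on day 14, edgeR's quasi-likelihood test). The log2 fold change stayed between −0.56 and −0.44. Those fits called 136 to 496 genes among all tested, against 651 with all 6 libraries and 2093 without Il21r-/- on day 10. By day, with 1 library per genotype and the error taken from the scatter of all 6, the log2 fold change of Cd40 was −0.48 on day 7 (adjusted p = 0.606), −0.40 on day 10 (adjusted p = 0.458) and −0.71 on day 14 (SE 0.20, edgeR likelihood ratio adjusted p = 0.0229). Day 14 was the 1 day on which a gene of the 10 was called, and that gene was Cd40. On day 7 the likelihood ratio test of edgeR gave 1 of the 10 an unadjusted p under 0.05 (Cd40), and on day 10 it gave 2 (Cd40 and Tnfrsf13b). Among all tested genes 1.07% were called on day 7, 3.1% on day 10 and 3.28% on day 14. The day 14 call was lost when WT on day 7 or WT on day 10 was left out of the dispersion estimate (adjusted p = 0.0591 and 0.0729 from edgeR).

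Relative to the other receptors, the Cd40 level per length was 18.2, 22.1 and 23.5% of that of Tnfrsf13c in WT and 22, 27.7 and 34.4% in Il21r-/- on days 7, 10 and 14. The ratio of Cd40 to Fas was 0.614, 0.703 and 0.665 in WT and 0.681, 0.871 and 0.890 in Il21r-/-. On each day both ratios were higher in the Il21r-/- library, although the Il21r-/- library of day 7 was below the WT library of day 14 for Tnfrsf13c and of day 10 for Fas. These ratios are descriptions and were not tested.

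Of 15 light zone genes other than Cd40, 7 were called over 3 days, all higher in Il21r-/-, and 8 did not pass, among them Icam1 (0.08) and Slamf1 (0.21) with values on the other side of 0. The median log2 fold change of the 15 was −0.67 (−0.01 over all tested genes), and 9 were called as higher in Il21r-/- with the libraries of a day paired. Their summed level was 1223 to 1747 CPM in WT and 2543 to 2756 in Il21r-/-. Of 16 dark zone genes 0 were called by edgeR's quasi-likelihood test, where 9 had an unadjusted p under 0.05. DESeq2's Wald test called 5 of them as higher in WT, and 318 of all 11005 tested genes. Their summed level was 3910 to 4731 CPM in WT and 3631 to 3922 in Il21r-/-. With the libraries of a day paired, 8 dark zone genes were called as higher in WT and 1 as higher in Il21r-/-. The paired fit called 1027 of 11005 tested genes as higher in WT and 13.6% as higher in Il21r-/-. Of 10 naive or memory B cell markers, 6 were called as higher in Il21r-/- and 1, Ighm, as higher in WT. Fcer2a and Gpr183, among the 6, are also among the called light zone genes. The list summed to 571.9 to 1254 CPM in WT and 970.6 to 1534 in Il21r-/-. Without pairing, edgeR's quasi-likelihood test called 4.52% of all tested genes as higher in Il21r-/-, 497 of the 651 called in either direction. These lists were chosen with earlier results of these data known. The part of these cell states in the Cd40 difference was not tested.

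Fas (Entrez 14102) lies on the plus strand of chromosome 19, from 34290647 to 34327775. It had 143.2, 141.3 and 160.6 CPM in WT and 179.5, 150.9 and 196.0 in Il21r-/- on days 7, 10 and 14. It was higher in Il21r-/- on each day, by 1.25, 1.07 and 1.22 times, but the Il21r-/- library of day 10 lay below the WT library of day 14, so the genotypes overlapped. The difference did not pass the threshold (log2 fold change −0.24, SE 0.11, edgeR quasi-likelihood adjusted p = 0.255). It passed with the libraries of a day paired (−0.24, adjusted p = 0.0307), a fit in which 13.6% of all tested genes were called as higher in Il21r-/-. It also passed without Il21r-/- on day 10 (−0.34, adjusted p = 0.0198, both from edgeR), a fit that called 2093 of 10968 genes in either direction.

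Tnfrsf13b (Entrez 57916), the gene of TACI, lies on the plus strand of chromosome 11, from 61126283 to 61153170 in RefSeq, a span that reaches Usp22. In GENCODE no exon of Tnfrsf13b overlapped another gene. Its WT libraries of days 7, 10 and 14 had 49.7, 28.7 and 27.9 CPM, and the Il21r-/- libraries had 50.7, 43.8 and 33.8. Il21r-/- held 1.02 times the WT level on day 7 and 1.53 times on day 10, and its day 10 and 14 libraries were below both day 7 libraries. Neither the day 10 difference (log2 fold change −0.61, SE 0.27, adjusted p = 0.335, likelihood ratio test) nor that over 3 days (−0.29, SE 0.14, adjusted p = 0.276, quasi-likelihood test, both edgeR) passed. Paired by day, the difference over 3 days passed (−0.30, adjusted p = 0.0384 from edgeR), and so did that of day 10 with dispersions from the paired model.

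Tnfrsf13c (Entrez 72049), the gene of BAFF receptor, lies on the minus strand of chromosome 15, from 82221742 to 82224380. Its CPM was 511.0, 476.3 and 480.4 in WT and 586.8, 502.7 and 537.0 in Il21r-/- on days 7, 10 and 14. Each Il21r-/- library was above the WT library of its day, by 1.15, 1.06 and 1.12 times, while Il21r-/- on day 10 was below WT on day 7. The difference over 3 days was −0.15 on the log2 scale (SE 0.10, edgeR quasi-likelihood adjusted p = 0.438). It did not pass in any of the 12 alternatives tried.

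Tnfrsf1b (Entrez 21938), the gene of TNFR2, lies on the minus strand of chromosome 4, from 145212368 to 145246870. It was the 1 receptor gene of the 5 with a higher level in WT, at 24.6, 22.3 and 14.8 CPM in WT and 20, 20 and 12.1 in Il21r-/-. The groups overlapped, since WT on day 14 was below Il21r-/- on days 7 and 10, and the log2 fold change of 0.24 did not pass (SE 0.14, edgeR quasi-likelihood adjusted p = 0.361).

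**Figure D3:**
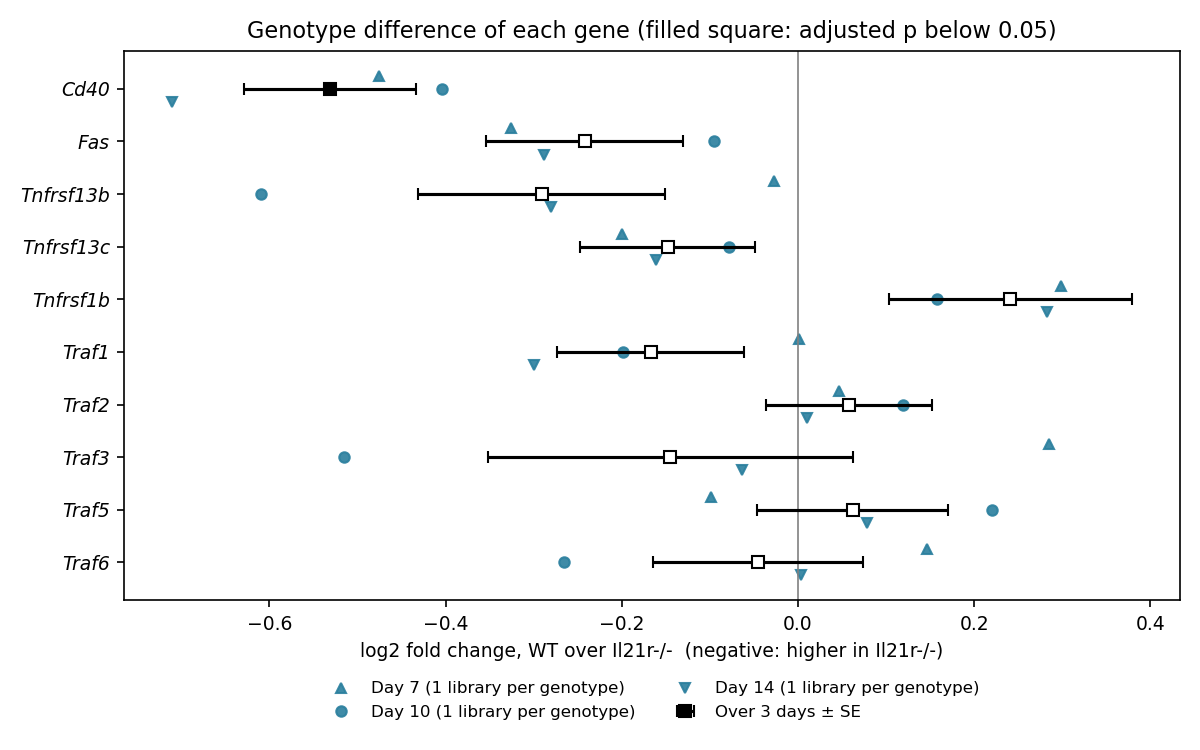
Log2 fold change of WT over Il21r-/- for each gene over 3 days (squares, ± SE, the standard error of the edgeR fit, filled where the adjusted p was below 0.05) and on each single day (blue symbols, 1 library per genotype). Cd40 at −0.53 is the 1 filled square, and the day values of Traf1, Traf3, Traf5 and Traf6 fall on both sides of 0.

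The 5 TRAF genes did not pass in either direction over 3 days in any alternative run, and 0 of them had an unadjusted p under 0.05 (edgeR's quasi-likelihood test). Traf1 (Entrez 22029, chromosome 2, 34941750 to 34961812, minus strand) had 108.1, 110.5 and 96.0 CPM in WT and 108.0, 126.7 and 118.2 in Il21r-/- (log2 fold change −0.17, SE 0.11, edgeR quasi-likelihood adjusted p = 0.412). The genotypes had nearly the same value on day 7, and the Il21r-/- libraries of days 10 and 14 were the highest 2 of the 6. Traf2 (Entrez 22030, chromosome 2, 25517982 to 25546940, minus strand) was the steadiest of the 10, with all 6 libraries between 55.2 and 62.1 CPM, a log2 fold change of 0.06 and a SE of 0.09.

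Traf3 (Entrez 22031, chromosome 12, 111166321 to 111267155, plus strand) had 29.1, 31.0 and 28.1 CPM in WT and 23.9, 44.3 and 29.3 in Il21r-/- on days 7, 10 and 14. The Il21r-/- library of day 10 stood above the other 5, which spanned 23.9 to 31.0. With it the log2 fold change was −0.15 (SE 0.21, adjusted p = 0.744), and without it the sign turned, to 0.15 (adjusted p = 0.418, both from edgeR's quasi-likelihood test). Traf5 (Entrez 22033, chromosome 1, 191997203 to 192092599, minus strand) had 109.0, 105.3 and 104.6 CPM in WT and 116.7, 90.4 and 99.0 in Il21r-/-, so the Il21r-/- libraries held both the highest and the lowest value (log2 fold change 0.06, adjusted p = 0.791 from edgeR). Its exons share 205 bases with Gm26879, on the opposite strand, and 65 bases with Mir3473c, and reads of these genes cannot be separated where strand was not used in counting. Traf6 (Entrez 22034, chromosome 2, 101678420 to 101701668, plus strand) had 52.0, 41.5 and 33.7 CPM in WT and 46.9, 49.9 and 33.6 in Il21r-/- (log2 fold change −0.05, SE 0.12). Without Il21r-/- on day 10 its sign turned to 0.06, and that of Traf5 to −0.03 (adjusted p = 0.754 and 0.882 from edgeR).

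With time after immunization, Tnfrsf1b, Tnfrsf13b and Traf6 had lower levels on day 14 than on day 7 in both genotypes, with differences of −28.4% to −44%. Tnfrsf1b fell, by 0.75 on the log2 scale from day 7 to day 14 (−40.5%, SE 0.17, edgeR quasi-likelihood adjusted p = 0.0491 over 6 libraries). It was the 1 gene of the 10 called, where 3.36% of tested genes were called as falling. Tnfrsf13b had a change of −0.70 (−38.5%, SE 0.17, adjusted p = 0.0552) and Traf6 one of −0.57 (−32.6%, SE 0.15, adjusted p = 0.066), neither past the threshold in that fit of edgeR. Cd40 had the largest change upward, 0.40 (32.2%, SE 0.12, adjusted p = 0.0903 from edgeR). The values of the other 6 lay between −0.14 (Traf5) and 0.16 (Fas), with adjusted p of 0.49 (Fas) and above in edgeR's fit.

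Within each genotype, the change of Tnfrsf1b from day 7 to day 14 was −40% in WT and −39.3% in Il21r-/-. For Tnfrsf13b the change was −44.0% in WT and −33.2% in Il21r-/-, and the WT value was already low on day 10 whereas the Il21r-/- value was between those of days 7 and 14. For Traf6 it was −35.2% in WT, where the value of day 10 was between those of days 7 and 14, and −28.4% in Il21r-/-, where day 10 was still as high as day 7. Cd40 was 21.4% higher on day 14 in WT and 42.8% higher in Il21r-/-. No difference in the trend between genotypes was called for any of the 10 genes (smallest unadjusted p 0.339, for Traf1). That test, with 2 residual degrees of freedom, called 0% of the 11005 tested genes, 118 of which had an unadjusted p under 0.05, and edgeR's likelihood ratio test also called 0.

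The calls with day depended on how day was fitted. With day as a factor and day 14 set against day 7, the model that pairs the libraries of a day, 4 of the 10 genes passed, namely Tnfrsf13b (−0.72, adjusted p = 0.000187), Tnfrsf1b (−0.73, adjusted p = 0.000251), Traf6 (−0.56, adjusted p = 0.000993) and Cd40 (0.40, adjusted p = 0.00417, all edgeR), and 26.2% of all tested genes did. In the linear fit the Tnfrsf1b call was lost without any 1 library other than Il21r-/- on day 10, with adjusted p from 0.0645 (without WT on day 10) to 0.432 (without WT on day 14) in edgeR's quasi-likelihood test. Its log2 change stayed between −0.87 and −0.64. Those fits called 0 to 408 genes among all tested, against 488 with all 6 libraries and 2124 without Il21r-/- on day 10. Of the 10 naive or memory B cell markers 7 were called as falling with day in the linear fit of all 6 libraries, where 3.36% of all tested genes were. The median log2 change of the markers was −1.01 (0.00 over all tested genes), and no values without 1 library are given for them. Their part in the lower Tnfrsf13b, Tnfrsf1b and Traf6 values was not tested.

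**Figure D4:**
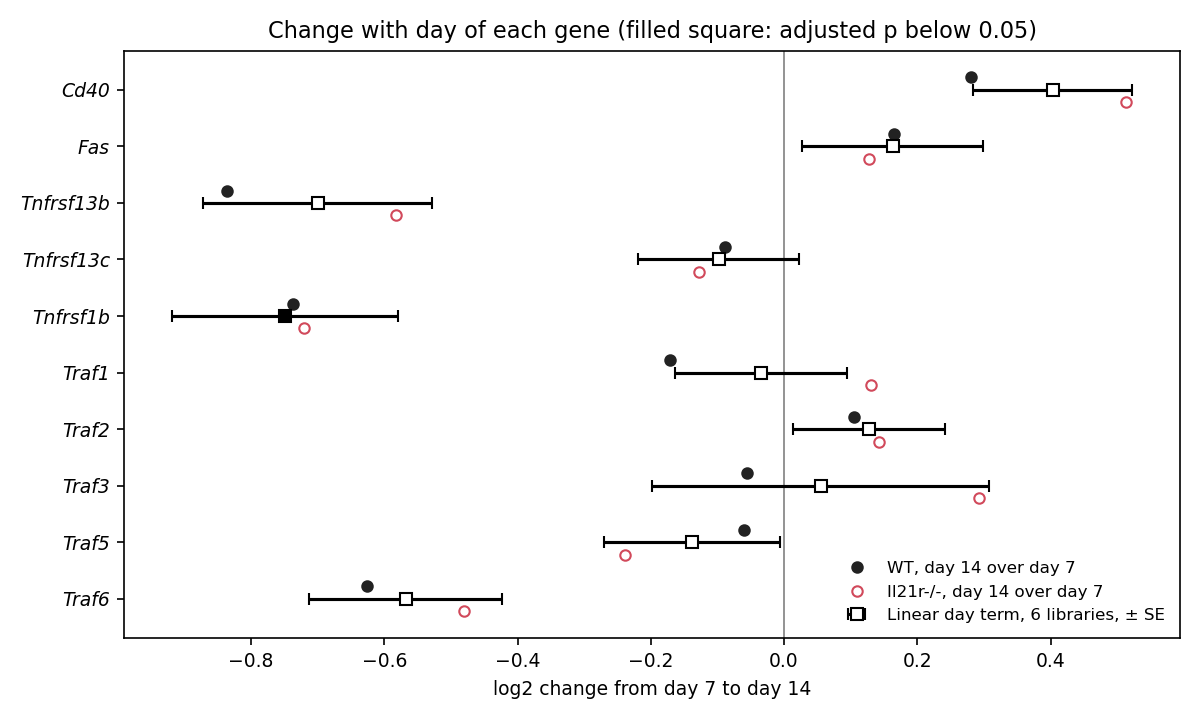
Log2 change of each gene from day 7 to day 14, by the linear day term over all 6 libraries (squares, ± SE, filled where the adjusted p was below 0.05) and as the plain ratio of day 14 to day 7 within WT (filled circles) and Il21r-/- (open circles). Tnfrsf1b at −0.75 is the 1 filled square, and Tnfrsf13b, Tnfrsf1b and Traf6 are below 0 in both genotypes.

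Tnfrsf1b and Traf6 were lower on day 14 in both genotypes and had a Pearson r of 0.872 with each other over the 6 libraries, a description over libraries that share day and genotype. Their promoters, for these 2 genes the 250 bases before the start of the gene in RefSeq (GRCm38.p6), are shown because the levels of these 2 genes were lower together, with matches to the STAT motif TTCNNNGAA on either strand in capitals. The first is chr4:145246871-145247120 on the minus strand and the second chr2:101678170-101678419 on the plus strand.
Tnfrsf1b: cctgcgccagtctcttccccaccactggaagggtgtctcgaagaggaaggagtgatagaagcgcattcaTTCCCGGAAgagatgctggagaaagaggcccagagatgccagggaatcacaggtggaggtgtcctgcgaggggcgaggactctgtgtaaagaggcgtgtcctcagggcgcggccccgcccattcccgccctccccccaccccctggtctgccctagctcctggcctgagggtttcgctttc
Traf6: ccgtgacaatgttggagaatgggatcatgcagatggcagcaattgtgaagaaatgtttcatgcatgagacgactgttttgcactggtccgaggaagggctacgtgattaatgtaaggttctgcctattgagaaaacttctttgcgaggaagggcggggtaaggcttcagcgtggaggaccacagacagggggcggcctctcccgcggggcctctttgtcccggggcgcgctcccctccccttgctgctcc

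The Tnfrsf1b promoter held 1 match, which begins 181 bases before the start, and the Traf6 promoter held none. The table had a promoter for 9 of the 10 genes, Cd40 being the one without an entry. Among these 9 the Fas stretch also matched the STAT motif, although the table's start for Fas is not the gene start given above, and 7.02% of 32851 promoters of this length held a match. The NF-kB motif GGGNNTTTCC was matched in 1 of the 9, that of Traf3, and in 1.41% of all promoters. The starts used for the Tnfrsf13b, Traf1 and Traf3 stretches also differ from the gene starts given above. The Traf3 stretch ends at 111166369, and its match, at −10 from that end, lies within the gene span given above. A match is a description of these letters and not a site.

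Over the 6 libraries, the tested genes whose normalized log2 CPM ran most closely with that of Cd40 were Casp4 (Pearson r = 0.997), Arl5c (0.996), Zfp637 (0.993), Ifi27 (0.992) and Snhg15 (0.989), and 48 genes were above 0.95. Casp4, an inflammatory caspase, had 10.2, 12.5 and 14.7 CPM in WT and 18.2, 21.8 and 32.1 in Il21r-/- on days 7, 10 and 14, the same order of libraries as Cd40 in each genotype. For Fas the closest were 2610524H06Rik, Shld1, Gm10913, Ubxn6 and Cdpf1 (r from 0.997 to 0.990, 139 genes above 0.95), and for Tnfrsf13c they were Ccndbp1, Ginm1, Cd151, Cog5 and Mynn (0.995 to 0.987, 67 genes). With 6 points that share genotype and day, high values of r are common among 11005 genes. Among the 10 genes themselves Cd40 and Fas had r = 0.829.

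The ligands of CD40, Fas and the BAFF receptors were nearly absent from these libraries of sorted B cells. Cd40lg, the gene of CD40 ligand, had 8 to 20 counts per library, Fasl had 0 or 1, and Tnfsf13b, the gene of BAFF, had 1 to 18. Tnfsf13, the gene of APRIL, was listed at 0 in all 6. Of 15 TNF family ligands, 6 could be tested and 1 was called over 3 days, Cd70, a costimulatory ligand of activated B cells, higher in Il21r-/- (log2 fold change −1.69, edgeR quasi-likelihood adjusted p = 0.0357). Cd70 had 1, 8 and 20 counts in WT and 3, 22 and 85 in Il21r-/- on days 7, 10 and 14.

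Of 17 other TNF receptors, 7 could be tested and Tnfrsf18, the gene of the costimulatory receptor GITR, was called, higher in Il21r-/- (−1.69, edgeR quasi-likelihood adjusted p = 0.0179). It had 2.57, 1.18 and 0.796 CPM in WT and 5.54, 3.73 and 4.74 in Il21r-/-, at levels far below those of Cd40. The genotypes did not overlap, which was the case for 18.4% of all tested genes. The decoy receptor gene Tnfrsf26 did not pass (−0.66, adjusted p = 0.0531) and passed with the libraries of a day paired (adjusted p = 0.00135, both edgeR). All 7 had negative log2 fold changes, with a median of −0.66. Tnfrsf17, the gene of BCMA and the third receptor for BAFF and APRIL, had 2 to 17 counts and was not tested.

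Of 28 partners and kinases of the TRAF proteins, 25 did not pass and 3 were called as higher in Il21r-/-, where 4.52% of all tested genes were. These were Birc2, which encodes cIAP1, the ubiquitin ligase recruited through TRAF2 (−0.45, adjusted p = 0.0449), the kinase gene Map3k1 (−0.82, adjusted p = 0.0397) and Ikbke, an IKK-related kinase gene (−1.27, adjusted p = 0.0224, all edgeR's quasi-likelihood test). Birc2 had 50.4, 62.2 and 61.6 CPM in WT and 64.9, 81.4 and 93.0 in Il21r-/-. The median of the list was −0.11, and with the libraries of a day paired 2 were called as higher in WT and 8 as higher in Il21r-/-. The paired fit called 1027 of 11005 tested genes as higher in WT and 13.6% as higher in Il21r-/-. Of 11 tested death receptor genes, such as Fadd and Casp8 which act with Fas, 0 were called by edgeR's quasi-likelihood test and 2 had an unadjusted p under 0.05. With the libraries of a day paired, Fcmr was called, and DESeq2 and edgeR's likelihood ratio test also called 1.

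Of 24 tested genes that CD40 or NF-kB signals are known to induce in B cells, 7 were called and all 7 were higher in Il21r-/-. Among all tested genes 4.52% were called in that direction, 497 of the 651 called in either direction. The list was chosen with earlier results of these data known, so its share is not independent evidence. Ccl22, a chemokine gene, had 27, 12 and 24 counts in WT and 409, 824 and 500 in Il21r-/- (log2 fold change −4.74, adjusted p = 0.000243). Cd80, a ligand of CD28, had 2.05, 3.01 and 3.84 CPM in WT and 6.50, 12.7 and 17.8 in Il21r-/- (−2.00, adjusted p = 0.000976), and Cd83, a light zone marker, had 382.7 to 534.9 in WT and 793.7 to 915.8 in Il21r-/- (−0.93, adjusted p = 0.00669, each from edgeR's quasi-likelihood test). In each of these 3 genes no Il21r-/- library was as low as the highest WT library. They had the smallest p of the list in the same libraries, so this is not further support. The genotypes did not overlap, in either direction, for 18.4% of all tested genes.

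The other 4 were the cytokine subunit gene Ebi3 (−1.16), the amino acid oxidase gene Il4i1 (−1.21), and the survival genes Bcl2l1 (−0.98) and Bcl2a1b (−1.12), with adjusted p from 0.0118 to 0.0139 in edgeR's quasi-likelihood test. Bcl2a1b has near-identical copies, so that reads can be split among them and its value is uncertain. The NF-kB subunit genes Nfkb1, Nfkb2, Rel and Relb of the same list did not pass, at −0.09, −0.29, −0.09 and −0.23. The median of the 24 genes was −0.31. With the libraries of a day paired, 14 of them were called as higher in Il21r-/- and 2 as higher in WT. The paired fit called 13.6% of all tested genes as higher in Il21r-/- and 1027 of 11005 as higher in WT. The list shares genes with the light zone list, Ccl22, Cd80, Cd83 and Bcl2a1b among them. Of the 7 light zone genes in no list of CD40 responses 3 were called, all higher in Il21r-/-.

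**Figure D5:**
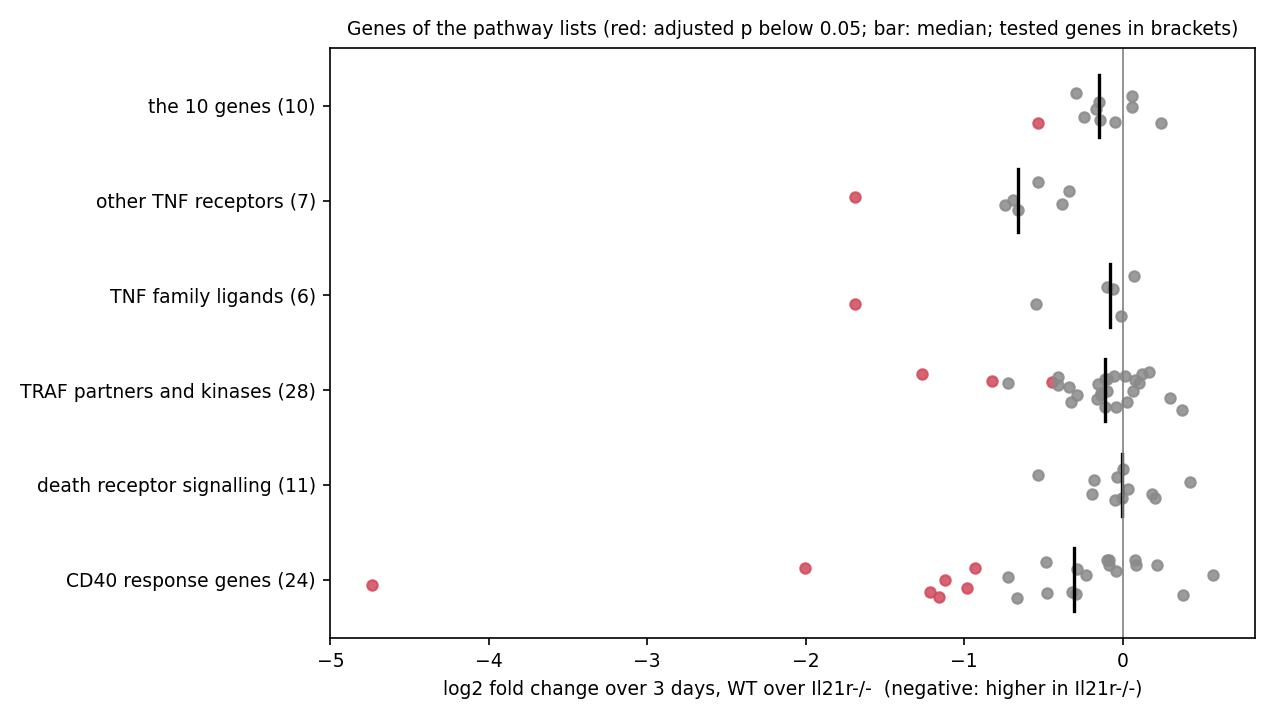
Log2 fold change of WT over Il21r-/- over 3 days for the 10 genes and for the tested genes of 5 lists (number in brackets), 1 point per gene, red where the adjusted p was below 0.05, with a bar at the median. All red points lie below 0 (higher in Il21r-/-), as did 497 of the 651 genes called among all 11005 tested, and the CD40 response genes hold 7 of them.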

How the data were processed

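RNA-seq was done on 6 libraries, grouped by genotype and day from their labels. The authors aligned 100 bp single-end reads to mm10 (GRCm38) with Rsubread, assigned them to RefSeq genes with featureCounts, pooled technical replicates, and deposited raw counts per gene. The submitters' processing notes also name CASAVA 1.8.2. Strand and multi-mapping settings are not given in the sources used here. The single-library files and the table of all libraries held identical counts for all 6 libraries. Entrez identifiers were matched to symbols in RefSeq GRCm38.p6 (25275) and GENCODE (18), and 1886 had none. Exon overlaps came from GENCODE of the same build.

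Genes with an average log2 CPM of at least 0 were tested (11005), leaving out Ig variable genes, Xist and genes of the Y chromosome, with TMM normalization in edgeR 4.0.16 (R 4.3.3). Dispersions came from genotype plus a linear effect of day (common dispersion 0.017, biological coefficient of variation 13.1%, 3 residual degrees of freedom). edgeR's quasi-likelihood test was applied to the genotype difference over 3 days, the trend with day and the difference in trend, and its likelihood ratio test to each day's difference, on 1 library per genotype. Adjustment of p-values was by Benjamini-Hochberg over these genes, with a threshold of 0.05. The sources differ on the animals behind a library, and p-values measure the spread between these libraries. RPKM used the exon lengths of the deposited table. Depth was 21353438 to 27435124 counts per library.

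Libraries of a day deviated together from their genotype means (r = 0.64, 0.413 and 0.645 across genes on days 7, 10 and 14), so day as a factor pairs them, and for the 10 genes paired values are given where they change a call. Other alternatives were DESeq2 1.42.0 size factors and Wald test, other filters, and leaving out each library. The scripts were tested on simulated data. Genes named were the 10, those called over 3 days in 5 pathway lists (at most 6 of a list by smallest p), and the 5 nearest in pattern to Cd40, Fas and Tnfrsf13c. Other genes (Il4i1, and ligand, death receptor, NF-kB and marker genes) were named after their values were seen. The genes and lists were chosen with earlier results of these data known, so none is independent evidence. Of the other cell type lists, edgeR called 1 of 13 GC B cell genes (Pax5, higher in Il21r-/-), 0 of 2 tested T cell, 1 of 5 tested myeloid (Cd68), 2 of 5 tested plasma cell (Prdm1 higher in WT, Xbp1 higher in Il21r-/-), 0 of 3 tested erythroid and 1 of 1 tested follicular dendritic or stromal genes (Pecam1). Paired by day, the calls as higher in WT and in Il21r-/- were 3 and 4 for GC B cell and 0 and 2 for myeloid. They were 1 and 4 for plasma cell and 2 and 14 for CD40 response genes, and the ligands had 2 as higher in Il21r-/-. Among all 11005 tested genes the paired fit called 1027 as higher in WT and 1492 (13.6%) as higher in Il21r-/-.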

Additional observations from a re-analysis of the deposited data

How the results depend on the processing

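Over 3 days 1 of the 10 genes was called, and 1 was called with DESeq2's size factors, either other filter, edgeR's likelihood ratio test and DESeq2's Wald test. With the replicate block, day as a factor, it was 3 (Cd40, Fas and Tnfrsf13b), and the calls among all 11005 genes went from 651 to 2519. It changed no other call of the 10 over 3 days. Leaving out 1 library gave 0 to 2, with 136 to 2093 calls among all genes. For the trend with day the count was 1, against 3 with all genes of any count, 4 with edgeR's likelihood ratio test, 3 with DESeq2's Wald test, 4 with the replicate block, and 0 to 4 without 1 library. The calls among all genes were 488, against 869 of 16909, 1186, 870, 2880, and 0 to 2124 in the same order. On day 10 the count was 0, and 1 with dispersions from the replicate block, where the calls among all genes went from 341 to 822. On day 14 the count was 1, and 0 to 1 without 1 library in the dispersion estimate. The calls among all genes on that day were 361, and 341 to 704 without 1 library. The cause of these moves was not tested. The counts for day 7 and for the difference in trend were 0 under all alternatives run. Leaving out 1 library turned the sign of 6 values, none of them past the threshold. Over 3 days these ranged from −0.367 to 0.147 for Traf3, −0.025 to 0.184 for Traf5 and −0.132 to 0.056 for Traf6, each turning without Il21r-/- on day 10. The trend of Traf1 ranged from −0.17 to 0.107, turning without WT on day 7 (0.001) or day 14, and those of Traf3 (−0.3 to 0.26) and Traf5 (−0.2 to 0.021) turned without Il21r-/- on day 7. Each of the 10 genes had at least 302 counts in each library, and each day had 1 library per genotype.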

Other observations

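Among the ligands and receptors related to the 10 genes, several changed with day over the 6 libraries. They were named after their values were seen. Cd70 rose from day 7 to day 14 (log2 change 3.97, adjusted p = 0.00611), as did Tnfsf9, the gene of 4-1BB ligand (1.36, adjusted p = 0.0338), and Tnfsf14, the gene of LIGHT (1.66, adjusted p = 0.0464, each from edgeR's quasi-likelihood test over 6 libraries). Tnfsf9 had 5.75, 6.63 and 10.3 CPM in WT and 3.27, 8.19 and 13.4 in Il21r-/- on days 7, 10 and 14.

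In the other direction, Tnf fell by 0.80 on the log2 scale (adjusted p = 0.0384) and the decoy receptor gene Tnfrsf26 fell by 1.46 (adjusted p = 0.0104, both edgeR's quasi-likelihood test). Tnf had 14.1, 9.96 and 7.77 CPM in WT and 14.7, 9.83 and 8.59 in Il21r-/-, nearly the same course in each genotype. Map3k1, higher in Il21r-/- over 3 days, also fell with day, by 1.12 (adjusted p = 0.0382 from edgeR). Ltb, the gene of lymphotoxin beta, had 711.9, 492.2 and 440.6 CPM in WT and 872.4, 718.8 and 768.3 in Il21r-/-, a genotype difference of −0.55 that did not pass (adjusted p = 0.0546) and passed with the libraries of a day paired (adjusted p = 3.56e-05 from edgeR).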
